A study of Canis lupus familiaris with 5 samples.

Results

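IL7R, listed once in the count matrices as ENSCAFG00000018752, encodes the α chain of the interleukin-7 receptor and was followed across B-lineage and T cells of dog bone marrow. It is 1 gene of the 20257 features counted. Its row was read in every library, and cells were sorted into 8 gates by the unique molecular identifiers (UMIs, counts of captured RNA molecules) of other genes, so no gate used IL7R itself. The study sequenced single cells of 5 marrow libraries with 10x Genomics 3′ chemistry. Of these, 2 libraries held cells sorted for CD34, the surface antigen of blood progenitors (CD34-sorted 1 and 2), and 3 held whole marrow cells (whole marrow 1, 2 and 3). All libraries came from healthy dogs of genotype Wt, and the labels used here name no treatment and no age. Marrow was flushed from the femur and its red cells were lysed, and each library was loaded for about 5000 cells.

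The α chain pairs with the common γ chain (IL2RG) to bind interleukin-7, and with CRLF2 to bind thymic stromal lymphopoietin (TSLP). The IL-7 receptor signals through the kinases JAK1 and JAK3 to STAT5A and STAT5B. In mice the receptor is needed to make both B and T cells and is switched off as B cells mature, whereas in humans B cells form without it. In mature T cells it marks resting naive and memory cells and is lost after activation. FOXO1 is among the factors that switch the gene on in mouse lymphocytes.

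After barcodes with under 200 genes or over 10% mitochondrial UMIs were removed, 24708 of 27953 remained. These were 4720 and 3765 in the CD34-sorted libraries, and 7295, 4585 and 4343 in whole marrow. A kept cell had a median of 11622 and 14623 UMIs in the CD34-sorted libraries, against 2694, 3689 and 4344 in whole marrow. Any pair of libraries shared 4 to 12 barcodes. The removed share was 4.51% and 22.8% in the CD34-sorted libraries, against 7.61%, 8.90% and 16.5% in whole marrow. The sorted libraries come from dogs that also gave whole marrow, as far as the library names tell. P-values of sorted against whole marrow measure the spread between these few libraries. Those between gates measure the spread of gate sums left once library differences are removed, pooled over the gates fitted together. Some of these sums share cells.

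Over all kept cells, IL7R made up 64.6 and 57.1 CPM (UMIs of the gene scaled to a common total of UMIs) in CD34-sorted 1 and 2, against 18.2, 12.8 and 13.3 CPM in whole marrow 1, 2 and 3. The groups did not overlap. The mean was 60.9 ± 5.35 CPM in the sorted libraries (SD, n = 2) and 14.8 ± 2.96 CPM in whole marrow (SD, n = 3). By edgeR's quasi-likelihood fit, the log2 fold change was 1.75 ± 0.22 (SE) and the Benjamini-Hochberg adjusted p was 0.00318. This comparison called 15.9% of 12507 genes higher and 17.3% lower, so a call in it was common. An IL7R UMI was found in 21.3% and 23.0% of sorted cells, against 3.06%, 3.45% and 4.03% of whole marrow cells. With each cell thinned to 1000 UMIs, these shares were 6.35% and 6.19%, against 1.74%, 1.48% and 1.08%. Thinning here and below leaves out cells with under 1000 UMIs. Of the sorted cells, 4712 of 4720 and 3750 of 3765 remained. In whole marrow 6158 of 7295, 4192 of 4585 and 4241 of 4343 did, so the loss was uneven. In sums over all kept cells, more cells of a type and more RNA per cell cannot be told apart.

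The cells that held IL7R differed between the libraries. For this account each cell was put in the first part it met, in the order VPREB1, IRF8 and TCF4, stem-like and CD3E. Cells with at least 5 UMIs of VPREB1, which encodes part of the surrogate light chain of B-cell precursors, carried 67.7% and 60.9% of all IL7R UMIs in the sorted libraries, against 20.8%, 15.6% and 46.6% in whole marrow. They made up 45.0% and 41.4% of the sorted cells, against 2.82%, 1.24% and 4.19% of whole marrow cells. Cells of an added gate on IRF8 and TCF4 carried 14.6% and 16.4%, against 25.4%, 39.7% and 21.6%. In whole marrow 1 and 2 this share came from 0.70% and 0.98% of the cells. The remaining cells with a UMI of CD3E, a chain of the T-cell receptor complex, carried 0.380% and 0.258%, against 29.1%, 24.6% and 15.9%. With those of earlier parts counted in, CD3E cells held 39 of 3950 and 58 of 3486 IL7R UMIs in the sorted libraries, against 283 of 947, 142 of 577 and 112 of 592 in whole marrow.

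**Figure D1:**
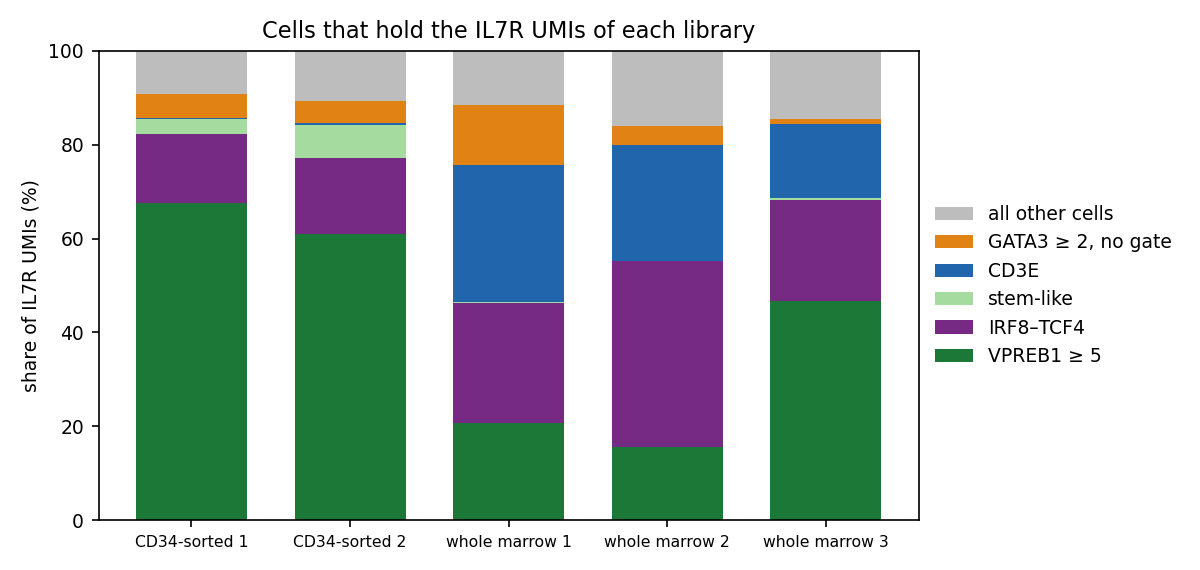
Share of the IL7R UMIs of each library (%, vertical axis) held by 6 exclusive parts of its cells, stacked, with the CD34-sorted libraries on the left. VPREB1 cells hold 67.7% and 60.9% in the sorted libraries, and CD3E cells of no earlier part hold 15.9% to 29.1% in whole marrow.

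The first gate was stem-like, with at least 4 UMIs of SULT1B1 and TFPI together. It was split by DNTT, which encodes the terminal transferase that adds bases to rearranging antigen receptor genes. CD34 stood at 482 and 333 CPM in the part with under 3 DNTT UMIs, and PAX5, the B-lineage factor, at 7.3 and 2.2 CPM (sorted libraries). In the part with 3 or more DNTT UMIs, PAX5 stood at 148 and 103 CPM in these libraries. The gates share cells: of the DNTT-high cells of CD34-sorted 1, 26.6% also met the cycling and 16.7% the non-cycling VPREB1 gate, and in CD34-sorted 2 34.5% and 15.7% did.

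IL7R was near background in stem-like cells with little DNTT. DNTT-high cells had 79.9 and 68.6 CPM in the sorted libraries (1154 and 1474 cells), and 107 and 36.0 CPM in whole marrow 1 and 3 (53 and 42 cells). Whole marrow 2 had 118 CPM in 18 such cells, too few to enter the test. DNTT-low cells had 0.77 and 1.60 CPM in the sorted libraries (380 and 201 cells), which rests on 4 and 5 IL7R UMIs. The groups did not overlap. Whole marrow held 9, 11 and 2 DNTT-low cells and no IL7R UMI in them, too few to set a level. DNTT-high sums exceeded DNTT-low sums by a log2 fold change of 5.83 ± 0.64 (SE), with an adjusted p of 5.03e-06 in edgeR's quasi-likelihood test (4 against 2 library sums). Only 3.38% of 9716 genes were called higher and 0.371% lower in this comparison. Without cells that also met another gate the log2 fold change was 5.22, with an edgeR adjusted p of 0.0423 and 4 genes called in all. DNTT-high cells that met no other of the 8 gates had 13.4 and 20.6 CPM in the sorted libraries (583 and 651 cells). In whole marrow 1, 2 and 3 such cells had 8.48, 0 and 3.20 CPM (12, 9 and 21 cells).

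IL7R was seen in 30.3% and 26.8% of DNTT-high cells of the sorted libraries, against 0.79% and 1.99% of DNTT-low cells at a like depth (medians of 12470 and 11885 UMIs, against 12828 and 13973). Cells of the MPO gate of the same libraries, at greater depth, had 2.70% and 3.24%, so the shares of DNTT-low cells read as background.

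Within the stem-like gate, the level climbed with the DNTT count. In CD34-sorted 1 it was 0, 0.92, 12, 164 and 257 CPM in cells with 0, 1 to 2, 3 to 9, 10 to 29 and at least 30 DNTT UMIs. In CD34-sorted 2 it was 1.8, 1.6, 9.0, 72.8 and 252 CPM over the same steps. Most of the climb lay above 9 DNTT UMIs in both libraries. VPREB1 moved with it. Among DNTT-high cells, those with no VPREB1 UMI had 9.6 CPM of IL7R in CD34-sorted 1 and 12.8 CPM in CD34-sorted 2. Cells with 1 to 4 VPREB1 UMIs had 21.3 and 29.7 CPM, those with 5 to 19 had 172 and 266 CPM, and those with at least 20 had 194 and 140 CPM. These steps were chosen after values were seen and are a description.

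**Figure D2:**
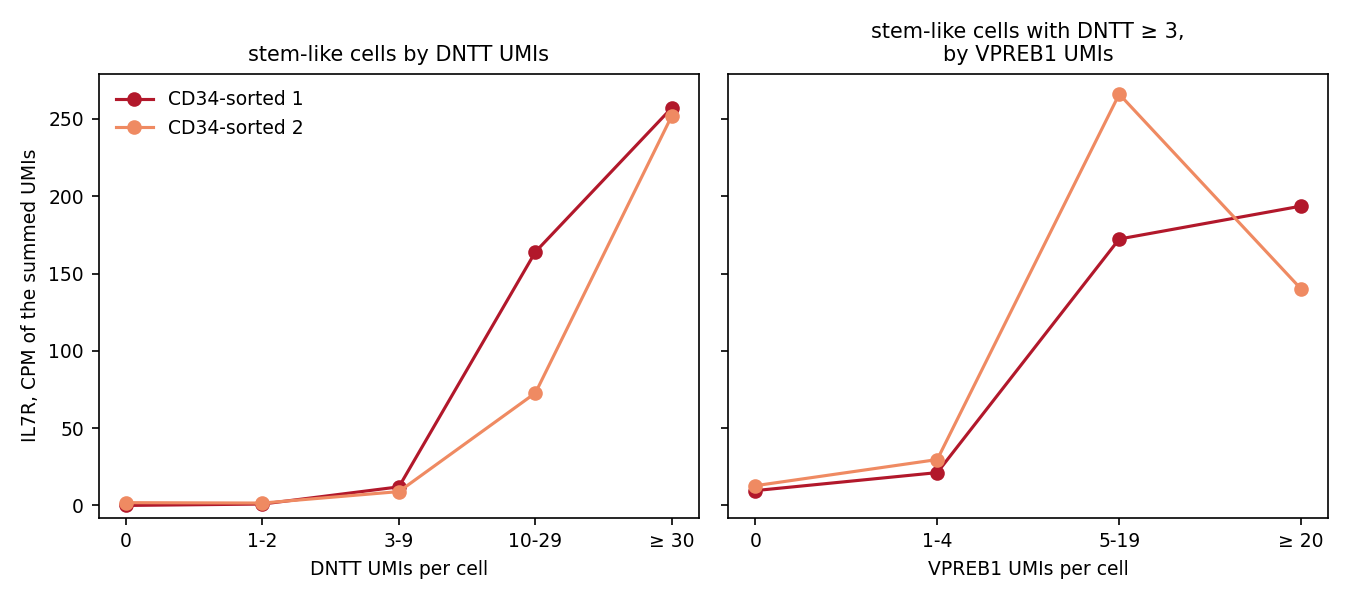
IL7R in CPM of the summed UMIs (vertical axis) of stem-like cells of the 2 CD34-sorted libraries, by DNTT UMIs per cell (left) and, among cells with at least 3 DNTT UMIs, by VPREB1 UMIs per cell (right). The lines stand at 12 and 9.0 CPM at 3 to 9 DNTT UMIs and reach 257 and 252 CPM at 30 or more.

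The VPREB1 gate (at least 5 VPREB1 UMIs) was split by MKI67 and TOP2A, which are transcribed in dividing cells, into non-cycling cells with 0 of their UMIs and cycling cells with at least 2. Its cells carried precursor B-cell transcripts: in non-cycling cells PAX5 stood at 401 to 2327 CPM, the recombinase gene RAG1 at 86.0 to 310 CPM and EBF1, another B-lineage factor, at 138 to 285 CPM over the 5 libraries.

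Non-cycling VPREB1 cells had 237 and 178 CPM of IL7R in CD34-sorted 1 and 2 (1297 and 605 cells), and 187, 214 and 164 CPM in whole marrow 1, 2 and 3 (123, 28 and 78 cells). Cycling VPREB1 cells had 144 and 127 CPM in the sorted libraries (666 and 848 cells), and 127, 206 and 139.9 CPM in whole marrow (74, 23 and 96 cells). The non-cycling value was the higher one in all 5 libraries, by a small margin in whole marrow 2. The means were 196 ± 29.2 CPM in non-cycling and 149 ± 32.8 CPM in cycling cells (SD, n = 5 each). The log2 fold change of 0.43 ± 0.28 (SE) was not called, with an adjusted p of 0.290 in edgeR's quasi-likelihood test, where 12% of 9716 genes were called higher and 12% lower. A fit on these 2 gates alone, with the library as a replicate block, gave 0.43 and called it, with an edgeR adjusted p of 0.00835.

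Against the DNTT-high stem-like gate, non-cycling VPREB1 cells were higher. Their 164 to 237 CPM did not overlap the 36.0 to 107 CPM of DNTT-high cells in the 4 libraries with at least 20 of these. The log2 fold change was 1.29 ± 0.30 (SE), with an adjusted p of 0.00307 in edgeR's quasi-likelihood test (5 against 4 sums). This comparison called 8.79% of 9716 genes higher and 12.8% lower. The size depends on shared cells: without cells of more than 1 gate it was 3.14. With every cell of at least 1000 UMIs thinned to 1000 it was 0.40, with an edgeR adjusted p of 0.365. Median depths were 1984 to 3039 UMIs in non-cycling VPREB1 cells, against 11213 to 16728 UMIs in DNTT-high cells.

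Within all VPREB1 cells, the sorted libraries had 184 and 144 CPM and whole marrow had 139.5, 206 and 144 CPM, so the groups overlapped. The log2 fold change of sorted over whole marrow was 0.10 ± 0.24 (SE), with an adjusted p of 0.95 in edgeR's quasi-likelihood test. In this gate edgeR called 0% of 7553 genes higher and 0.649% lower. At an unadjusted p under 0.05 there were 197 higher and 433 lower, and DESeq2 called 13 and 159. The sign for IL7R turned when cells were thinned (-0.12) or the dog was a replicate block (-0.025).

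**Figure D3:**
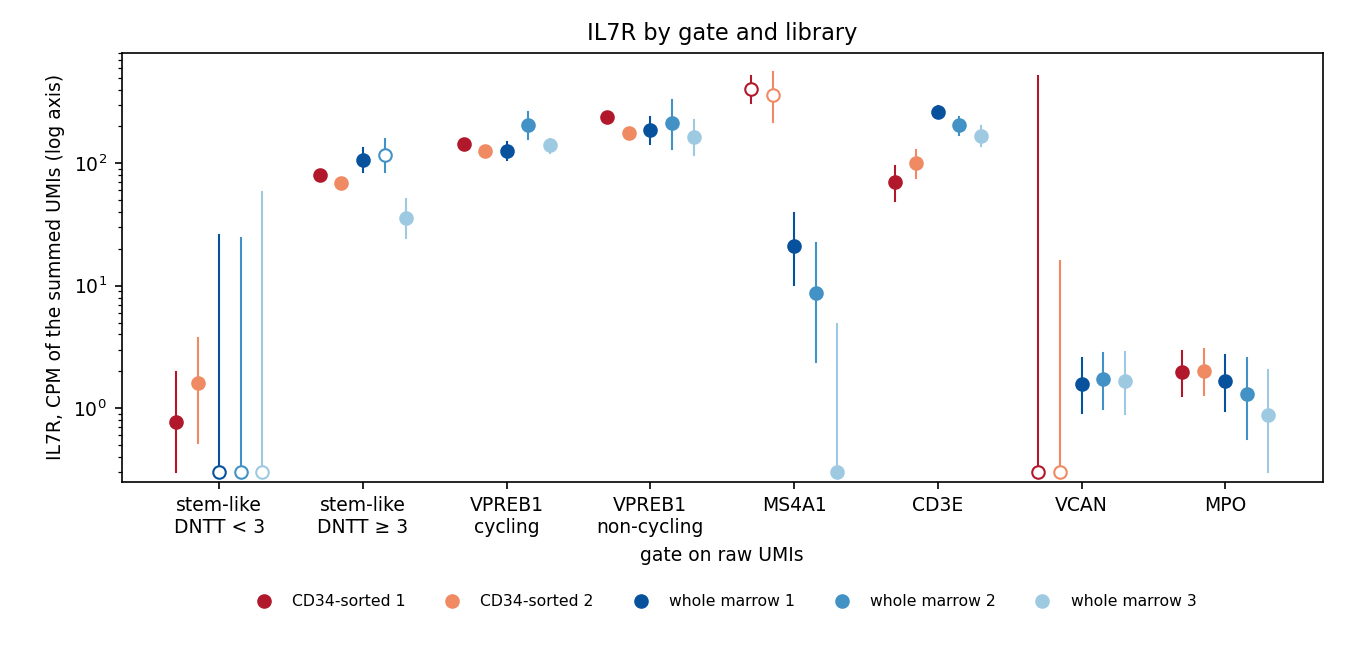
IL7R in CPM of the summed UMIs (log axis) in each gate and library, with bars for exact 95% Poisson intervals, which cover counting error only. Open symbols have under 20 cells and values of 0 are drawn at 0.3 CPM. VPREB1 gates and whole marrow CD3E cells lie between 127 and 262 CPM, and the VCAN and MPO gates lie near 1 to 2 CPM where they hold at least 20 cells.

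IL7R was unevenly spread inside the VPREB1 gate. No IL7R UMI was found in 71.1% and 70.2% of non-cycling cells of the sorted libraries, nor in 74.8%, 85.7% and 82.1% of those of whole marrow. A cell with any IL7R UMI held 3.49 and 2.87 of them on average in CD34-sorted 1 and 2, against 2.00, 5.00 and 2.71 in whole marrow. The variance of the count per cell was 5.28 in CD34-sorted 1 at a mean of 1.01.

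The share of cells with an IL7R UMI was higher in the deeper cycling cells, although their CPM was not. It was 28.9% and 29.8% of non-cycling VPREB1 cells in the sorted libraries and 25.2%, 14.3% and 18.0% in whole marrow. In cycling VPREB1 cells it was 44.6% and 42.6% in the sorted libraries and 43.2%, 69.6% and 67.7% in whole marrow. Cycling cells had medians of 9248 to 12527 UMIs. At 1000 UMIs per cell the shares were 11.1% and 10.1% in non-cycling cells and 11.1% and 8.15% in cycling cells of the sorted libraries. In whole marrow they were 16.7%, 3.57% and 11.5% in non-cycling and 12.2%, 13.0% and 14.6% in cycling cells, with no common order.

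**Figure D4:**
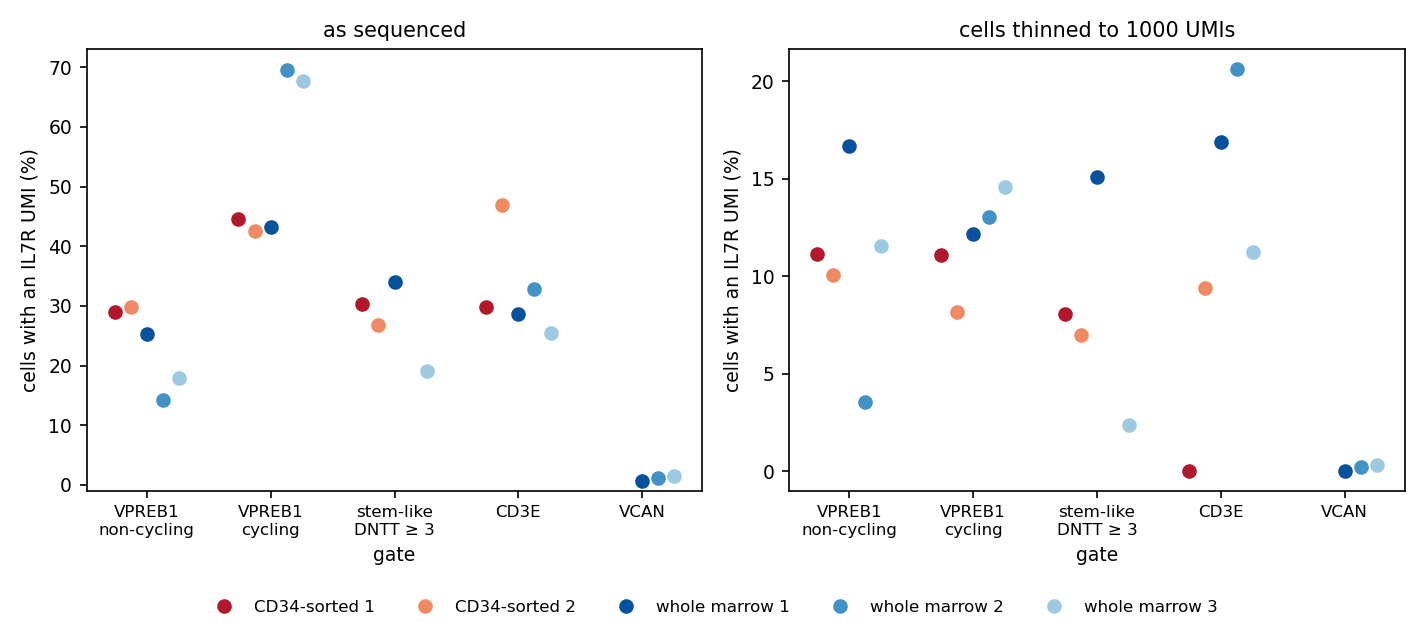
Share of cells with an IL7R UMI (%) in 5 gates, 1 point per library with at least 20 cells. Cells are as sequenced on the left. On the right each cell with at least 1000 UMIs is thinned to 1000, and the rest are left out. Cycling VPREB1 cells lead as sequenced, at 42.6% to 69.6%, and overlap the non-cycling ones after thinning.

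CD34 went with IL7R among non-cycling VPREB1 cells. Cells with a CD34 UMI had 290 and 225 CPM in the sorted libraries (690 and 262 cells), against 91.3 and 103 CPM in cells with none (607 and 343 cells). In whole marrow 1, 2 and 3 the values were 275, 366 and 300 CPM with CD34 (44, 9 and 8 cells), against 118, 0 and 133 CPM without it (79, 19 and 70 cells). The CD34-bearing part was higher in all 5 libraries. Cells with a PAX5 UMI had 160 and 107 CPM in the sorted libraries, against 356 and 281 CPM in those with none. In whole marrow 1 the PAX5 values were close, at 186 CPM with a UMI and 191 CPM with none. Whole marrow 2 and 3 had 105 and 112 CPM with PAX5, against 484 and 585 CPM in the 4 cells of each without it. Cells with a RAG1 UMI had 163 and 134 CPM in the sorted libraries, against 269 and 191 CPM in those with none. In whole marrow 1, 2 and 3 the values were 239, 31.5 and 217 CPM with RAG1, against 162, 307 and 123 CPM without it, so the libraries had no common order. Among cycling cells the part with RAG1 was the higher one in all 5 libraries. It had 196 and 171 CPM in the sorted libraries and 317, 243 and 236 CPM in whole marrow (14, 5 and 14 cells), against 130 and 122 CPM and 94.2, 199 and 131 CPM without RAG1. A UMI is likelier to be seen in a deeper cell: CD34-bearing cells had a median of 3191 UMIs, against 2060 in the others of CD34-sorted 1. The part of depth in these splits was not tested, and they were chosen after values were seen.

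**Figure D5:**
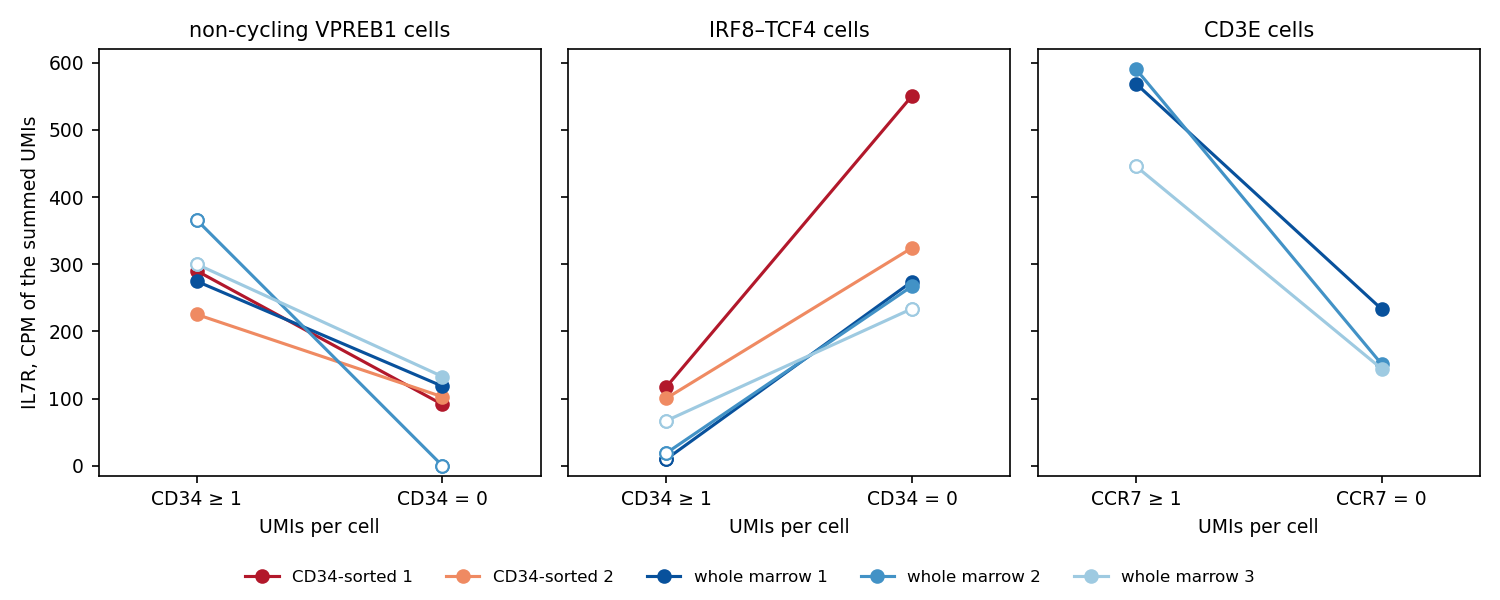
IL7R in CPM of the summed UMIs (vertical axis) in cells with and without a UMI of a second gene, joined by library, for non-cycling VPREB1 cells by CD34 (left), IRF8 and TCF4 cells by CD34 (middle) and whole marrow CD3E cells by CCR7 (right). Open symbols have under 20 cells. CD34-bearing cells are the higher ones on the left and the lower ones in the middle, in all 5 libraries.

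Whole marrow cells of the MS4A1 gate had almost no IL7R. The gate was at least 2 UMIs of MS4A1, which encodes CD20, a protein of mature B cells. In whole marrow its cells carried PAX5 at 112, 227 and 423 CPM, and DNTT at 40.2, 8.7 and 2.7 CPM. They also carried plasma-cell RNA: JCHAIN, the joining chain of secreted antibodies, stood at 1310, 3191 and 2123 CPM and was seen in 33.3%, 23.4% and 20.6% of them. MZB1 stood at 88.9, 364 and 453 CPM and TNFRSF17 at 209, 91.6 and 138 CPM. The part of plasma cells in the IL7R values was not tested. IL7R was 21.2, 8.73 and 0 CPM in whole marrow 1, 2 and 3 (48, 47 and 97 cells). The first 2 values rest on 10 UMIs in 2 cells and 4 UMIs in 1 cell. Taken as 3 counts, the 0 in 97 cells allows a share of cells with a UMI of up to 3.09% and a level of up to 3.99 CPM. In the MS4A1 cells outside the VPREB1, stem-like, CD3E, and IRF8 and TCF4 gates (44, 45 and 94 cells), no IL7R UMI was found. Those that met no other of the 8 gates (41, 47 and 93 cells) had 0, 8.73 and 0 CPM.

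Against non-cycling VPREB1 cells, MS4A1 cells were lower: 0 to 21.2 CPM, against 164 to 237 CPM, with no overlap. In log2 terms the change was -4.22 ± 0.56 (SE), with an adjusted p of 8.37e-06 in edgeR's quasi-likelihood test (3 against 5 sums). This comparison called 9.19% of 9716 genes higher and 6.92% lower. The sorted libraries held 13 and 6 MS4A1 cells, with 402 and 359 CPM of IL7R, and these were left out as under 20 cells. They carried DNTT at 520 and 473 CPM and PAX5 at 0 and 94.5 CPM, which is not the profile of the whole marrow MS4A1 cells. With sums of at least 10 cells let in, the log2 fold change was -1.58, with an edgeR adjusted p of 0.109. That setting added the 13 cells of CD34-sorted 1, and also the DNTT-low and DNTT-high sums of whole marrow 2 (11 and 18 cells).

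T cells were read in the CD3E gate, with at least 1 CD3E UMI. Whole marrow CD3E cells carried all 8 of the other T-cell markers counted, at a sum of 1281, 1266 and 1516 CPM. In CD34-sorted 1 and 2 the CD3E cells (37 and 32) carried 5 and 7 of the 8, at a sum of 201 and 272 CPM. CD3G, another chain of the receptor complex, stood at 1.8 and 10.3 CPM in these sorted cells, against 104, 289 and 294 CPM in whole marrow. DNTT stood at 373 and 570 CPM, against 5.6, 11.5 and 21.0 CPM. The sorted CD3E cells thus go against the T-cell label, and results are given with and without them. Neutrophil RNA was also present in whole marrow CD3E cells, with ELANE at 1614, 2076 and 9254 CPM, and its part in the results was not tested.

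IL7R in whole marrow CD3E cells stood at 262, 204 and 168 CPM in whole marrow 1, 2 and 3 (251, 131 and 98 cells), a mean of 211 ± 47.7 CPM (SD, n = 3). The sorted CD3E cells had 69.9 and 99.9 CPM. A UMI was seen in 28.7%, 32.8% and 25.5% of whole marrow CD3E cells, and in 16.9%, 20.6% and 11.2% at 1000 UMIs per cell.

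The level in T cells was close to that of B-cell precursors. CD3E cells of whole marrow, at 168 to 262 CPM, overlapped non-cycling VPREB1 cells, at 164 to 237 CPM. The log2 fold change, CD3E over non-cycling VPREB1 sums, was -0.16 ± 0.29 (SE), with an adjusted p of 0.765 in edgeR's quasi-likelihood test (5 against 5 sums), where 13.5% of 9716 genes were called higher and 8.89% lower. Without the sorted CD3E sums it was 0.39, with an edgeR adjusted p of 0.296, and 12% of 10250 genes were called higher and 7.6% lower. Neither fit called a difference, which does not show that the levels are equal. With cells thinned to 1000 UMIs the log2 fold change was 0.90, with an edgeR adjusted p of 0.0397.

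Against MS4A1 cells, CD3E cells were higher, at 168 to 262 CPM in whole marrow, against 0 to 21.2 CPM in MS4A1 cells. Their log2 fold change was 4.06 ± 0.54 (SE), with an adjusted p of 1.79e-05 in edgeR's quasi-likelihood test, where 3.94% of 9716 genes were called higher and 4.67% lower. Without the sorted CD3E sums it was 4.42, with an edgeR adjusted p of 5.76e-09, and 4.79% of 10250 genes were called higher and 4.11% lower. The sorted libraries ran the other way, with 69.9 and 99.9 CPM in CD3E cells, against 402 and 359 CPM in their 13 and 6 MS4A1 cells. When sums of at least 10 cells were let in, the log2 fold change was 1.504, with an edgeR adjusted p of 0.198.

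Myeloid cells set the background. Cells with at least 2 UMIs of VCAN, a monocyte gene, had 1.58, 1.73 and 1.67 CPM of IL7R in whole marrow 1, 2 and 3 (565, 512 and 322 cells). An IL7R UMI was seen in 0.71%, 1.17% and 1.55% of them, at medians of 9720 to 13969 UMIs. These levels rest on 16, 16 and 13 IL7R UMIs in 4, 6 and 5 cells, with up to 13, 10 and 7 in 1 cell. VCAN cells outside the VPREB1, IRF8 and TCF4, stem-like, CD3E and MS4A1 gates had 0.31, 0.33 and 0.27 CPM. Cells with at least 0.1% of their UMIs from MPO, the myeloperoxidase of neutrophil precursors, had 1.96 and 2.02 CPM in the sorted libraries, and 1.66, 1.29 and 0.87 CPM in whole marrow. A UMI was seen in 2.70% and 3.24%, and in 0.78%, 1.39% and 1.83% of these cells. Against the VCAN gate, CD3E cells had a log2 fold change of 6.67 ± 0.46 (SE), with an adjusted p of 1.48e-10 in edgeR's quasi-likelihood test, where 14.5% of 9716 genes were called higher and 13.4% lower. Without the sorted CD3E sums it was 7.01, with an edgeR adjusted p of 6.61e-16, and 12.5% of 10250 genes were called higher and 12.5% lower.

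CD3E cells with cytotoxic transcripts held less IL7R than those without. CD3E cells with at least 2 UMIs of the granzyme, perforin and chemokine genes GZMA, GZMB, GZMK, PRF1 and CCL5 had 108, 61.8 and 126 CPM in whole marrow 1, 2 and 3 (137, 33 and 41 cells). CD3E cells with none of these UMIs had 374, 280 and 166 CPM (97, 88 and 45 cells). The cytotoxic cells were lower in all 3 libraries, and the groups did not overlap. This log2 fold change was -1.37 ± 0.34 (SE), with an adjusted p of 0.0478 in edgeR's quasi-likelihood test (3 against 3 sums of whole marrow), where 0.451% of 9319 genes were called higher and 0.268% lower. The call lies at the threshold and was lost in 9 other settings, and without either sorted library, whole marrow 1 or whole marrow 2, while the sign stayed. An IL7R UMI was seen in 13.1%, 9.09% and 17.1% of cytotoxic cells, against 47.4%, 44.3% and 31.1% of the others. Neutrophil RNA moved with the cytotoxic group: ELANE stood at 3982, 7302 and 25771 CPM in it, against 73.3, 62.3 and 65.0 CPM, and MPO at 486, 782 and 2199 CPM, against 35.7, 16.8 and 29.6 CPM. Of the gating genes, GZMB stood at 815, 1786 and 3101 CPM in cytotoxic cells, in the same library order as ELANE. GZMK stood at 1121, 582 and 940 CPM, without that order, and PRF1 at only 14.1, 5.1 and 4.2 CPM. Whether cells met the cytotoxic gate through GZMB UMIs that came with neutrophil RNA was not tested. CD3G stood at 141, 309 and 302 CPM in cytotoxic cells, against 88.4, 268 and 284 CPM in the others. With cells of 1 gate only, the log2 fold change was -1.58, not called. Only 5, 1 and 4 CD3E cells of whole marrow 1, 2 and 3 also met the MPO gate. ELANE was seen in 18.98%, 27.27% and 56.1% of the cytotoxic cells, so cells with neutrophil RNA remained in that setting. It therefore cannot tell the part of neutrophil RNA in the difference, which was not tested.

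Markers of resting T cells went the other way. Whole marrow CD3E cells with a UMI of CCR7, the lymph-node homing receptor of naive and central memory T cells, had 569, 591 and 446 CPM (31, 32 and 12 cells), against 233, 152 and 145 CPM in those with none. CCR7-bearing cells were the higher ones in all 3 libraries. At 1000 UMIs per cell, IL7R was seen in 35.5%, 40.6% and 25.0% of them, against 14.2%, 14.1% and 9.3%. LEF1, a factor of naive T cells, gave 330, 405 and 166 CPM with a UMI, against 247, 164 and 169 CPM without, so whole marrow 3 showed no such difference. CD8A-bearing cells had 196, 150.5 and 35.2 CPM (38, 23 and 15 cells), against 270.5, 216 and 180.2 CPM in the rest. CD4 was seen in only 18, 11 and 8 cells, which had 493, 121 and 97.8 CPM, with no common order against 239, 209 and 176 CPM in the rest. These splits were chosen after values were seen and have no test.

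A further IL7R-bearing population lay outside the VPREB1 gate. IRF8 and TCF4 are transcription factors of the plasmacytoid dendritic lineage. Cells with at least 1 UMI of IRF8, at least 2 of TCF4 and under 5 of VPREB1 had 211 and 185 CPM of IL7R in the sorted libraries (126 and 129 cells). In whole marrow they had 206, 184 and 184 CPM (51, 45 and 23 cells). The 5 values averaged 194 ± 13.3 CPM (SD, n = 5), a narrower spread than that of any tested lymphoid gate with 5 libraries. An IL7R UMI was seen in 61.1% and 63.6% of sorted cells and in 62.8%, 68.9% and 52.2% of whole marrow cells of this gate. At least 10 IL7R UMIs were found in 19.05% and 18.6%, and in 17.6%, 17.8% and 21.7%, against 0% to 1.32% of non-cycling VPREB1 cells. The medians were 15110 to 31463 UMIs per cell in this gate, so these counts per cell come at a greater depth. Some of these cells also met another gate, and those that met none had 288 and 221 CPM in the sorted libraries and 336, 287 and 282 CPM in whole marrow (40, 32 and 18 cells). The gate was added after values were seen and has no test.

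CD34 ran opposite to IL7R in these cells, unlike in non-cycling VPREB1 cells. With a CD34 UMI they had 118 and 101 CPM in the sorted libraries (91 and 72 cells), against 551 and 324 CPM without one (35 and 57 cells). In whole marrow they had 9.98, 19.1 and 67.1 CPM with CD34 (8, 10 and 5 cells), against 274, 267 and 234 CPM without it (43, 35 and 18 cells). The difference had 1 sign in all 5 libraries.

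The mean levels put the gates in an order. Whole marrow CD3E cells (211 ± 47.7 CPM, SD, n = 3), non-cycling VPREB1 cells (196 ± 29.2 CPM, n = 5) and IRF8 and TCF4 cells (194 ± 13.3 CPM, n = 5) came first and did not differ beyond their spread. Cycling VPREB1 cells (149 ± 32.8 CPM, n = 5) overlapped these. DNTT-high stem-like cells followed (72.8 ± 29.3 CPM, n = 4), then whole marrow MS4A1 cells (9.96 ± 10.6 CPM, n = 3). VCAN cells (1.66 ± 0.08 CPM, n = 3), MPO cells (1.56 ± 0.48 CPM, n = 5) and DNTT-low stem-like cells (1.19 ± 0.59 CPM, n = 2) came last, with overlapping ranges. Without the cells that met another gate, the IRF8 and TCF4 cells averaged 283 ± 47.2 CPM (SD, n = 4 libraries with at least 20 such cells), which would put them first. DNTT-high cells that met no other of the 8 gates had 13.4 and 20.6 CPM in the sorted libraries. In whole marrow 1, 2 and 3 such cells had 8.48, 0 and 3.20 CPM (12, 9 and 21 cells). These values overlap the 0 to 21.2 CPM of whole marrow MS4A1 cells, so the place of the DNTT-high gate depends on shared cells.

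The other genes of the IL-7 pathway were read from a list of 38, by role. The ligand genes were barely seen: IL7 reached at most 1.7 CPM and TSLP at most 0.5 CPM in any gate sum of at least 20 cells. CRLF2, the partner for TSLP, stayed at or below 1.9 CPM in all such stem-like and VPREB1 sums. In CD3E sums CRLF2 stood at 39.4 and 6.9 CPM in CD34-sorted 1 and 2, against 3.7, 7.2 and 3.0 CPM in whole marrow. IL2RG, the partner for interleukin-7, had 34.3 and 24.2 CPM in non-cycling VPREB1 cells of the sorted libraries and 6.0, 53.4 and 34.5 CPM in those of whole marrow. In cycling VPREB1 cells IL2RG had 19.8 and 10.9 CPM and 1.0, 6.5 and 6.0 CPM. IL2RG had 28.2 and 26.1 CPM in DNTT-high stem-like cells of the sorted libraries, against 29.8 and 27.9 CPM in DNTT-low ones, where IL7R was near background.

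Between DNTT-high and DNTT-low stem-like cells, 29 list members were tested and 4 rose with IL7R, where 3.38% of all genes were called higher. These were CCND3, a cyclin (log2 fold change 1.81), and the transcription factors FOXO1 (2.48), PAX5 (4.67) and EBF1 (4.61). None was called lower by edgeR, with 2 lower at an unadjusted p under 0.05 and 1 by DESeq2. JAK1 (-0.34), JAK3 (-0.04), STAT5A (-0.36), STAT5B (-0.08), IL2RG (-0.18) and BCL2 (-0.10) were not called. The median of the 29 was 0.01, against -0.01 over all genes tested. FOXO1 had 39.2, 62.5, 52.7 and 37.1 CPM in the DNTT-high sums of CD34-sorted 1 and 2 and whole marrow 1 and 3, against 9.2 and 7.7 CPM in the DNTT-low sums of the sorted libraries.

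Between non-cycling VPREB1 and DNTT-high stem-like cells, 9 of the 29 tested members rose and 1 fell, where 8.79% of all genes were called higher and 12.8% lower. The 9 were the kinase genes JAK1 (log2 fold change 0.57) and PIK3CD (1.04), BCL2L1 (2.15), whose product Bcl-xL blocks cell death, BCL2L11 (1.06), whose product Bim promotes it, CCND3 (1.13), FOXO1 (2.30), IKZF1 (0.44), PAX5 (2.20) and EBF1 (1.56). The cyclin gene CCND2 fell (-1.38). IL2RG (0.16), JAK3 (0.38), STAT5A (-0.12), STAT5B (0.11) and BCL2 (-0.66) were not called. The median was 0.32, against -0.01 over all genes.

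Between non-cycling and cycling VPREB1 cells, 10 of 29 members rose while IL7R itself was not called, where 12% of all genes were called higher and 12% lower. None was called lower by edgeR, with 0 lower at an unadjusted p under 0.05 and 0 by DESeq2. The 10 were IL2RG (log2 fold change 1.27), JAK1 (0.55), JAK3 (1.05), STAT3 (0.91), PIK3CD (1.02), PIK3R1 (0.66), the phosphatase gene PTPN6 (0.40), BCL2L1 (1.66), CCND2 (1.67) and FOXO1 (1.62). STAT5A (0.52), STAT5B (0.30) and BCL2 (0.41) were not called. The median was 0.41, against 0.08 over all genes. FOXO1 stood at 196 and 273 CPM in non-cycling cells of the sorted libraries and 217, 406 and 285 CPM in those of whole marrow. In cycling cells it stood at 93.9 and 104 CPM and at 55.5, 84.9 and 63.3 CPM, with no overlap. BCL2L1 had 15.2 and 11.7 CPM in non-cycling cells of the sorted libraries and 60.3, 74.7 and 56.1 CPM in those of whole marrow, against 8.8 and 5.8 CPM and 5.7, 6.5 and 8.4 CPM in cycling cells.

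In MS4A1 cells 7 of 29 members fell with IL7R against non-cycling VPREB1 cells: PIK3CD (log2 fold change -2.50), PIK3R1 (-2.04), BCL2L1 (-4.30), CCND3 (-2.78), FOXO1 (-2.64), RUNX1 (-2.14) and EBF1 (-2.78). CCND2 rose (1.89). Over all genes 6.92% were called lower and 9.19% higher. IL2RG (-0.18), JAK1 (-0.10), JAK3 (-1.59), STAT5A (-1.19), STAT5B (0.10) and BCL2 (0.61) were not called.

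Against non-cycling VPREB1 cells, 4 of 29 members rose in CD3E cells, a share close to the 13.5% of all genes called higher: CRLF2 (log2 fold change 5.44), PTPN6 (0.46), BCL2 (1.53), whose product blocks cell death, and the factor ETS1 (1.65). The 5 that fell, where 8.89% of all genes were called lower, were BCL2L1 (-4.86), CCND3 (-1.98), FOXO1 (-3.52), PAX5 (-4.14) and EBF1 (-3.44). Without the sorted CD3E sums 8 rose and 5 fell, against 12% and 7.6% of all genes, with IL2RG (1.27), JAK1 (0.88) and CCND2 (1.60) among those added and ETS1 at 2.47. ETS1 stood at 262, 319 and 352 CPM in whole marrow CD3E cells, against 48.3, 128 and 104 CPM in non-cycling VPREB1 cells of the same libraries. FOXO1 stood at 17.6, 14.4 and 24.0 CPM in whole marrow CD3E cells, against 217, 406 and 285 CPM in these VPREB1 cells. BCL2 stood at 48.2, 40.2 and 58.5 CPM, against 3.0, 10.7 and 13.0 CPM.

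Against MS4A1 cells, CD3E cells had 3 of 29 members higher, PIK3CD (log2 fold change 2.10), PIK3R1 (2.10) and RUNX1 (1.89), and PAX5 lower (-2.36), where 3.94% of all genes were called higher and 4.67% lower. Against VCAN cells 15 were higher, with IL2RG (3.53), JAK1 (1.18), JAK3 (2.52), BCL2 (4.46), CCND2 (4.22) and ETS1 (6.05) among them, and SPI1, a myeloid factor, was lower (-1.17). Over all genes 14.5% were called higher and 13.4% lower. Without the sorted CD3E sums these counts were 6 higher and 1 lower against MS4A1 cells, and 13 higher and 1 lower against VCAN cells, where 4.79% and 4.11%, and 12.5% and 12.5%, of all genes were called. Between cytotoxic and other CD3E cells 28 members were tested and none was called by edgeR or DESeq2, with 1 higher and 2 lower at an unadjusted p under 0.05. Within all VPREB1 cells none of 27 was called between sorted and whole marrow libraries by edgeR or DESeq2, with 3 higher and 4 lower at an unadjusted p under 0.05. Over all kept cells 7 of 34 were higher and 5 lower in sorted libraries, near the shares over all genes (15.9% and 17.3%), with BCL2 (2.40), JAK3 (1.67) and FOXO1 (1.62) higher and STAT5B (-0.95) lower.

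STAT5A stayed at or below 10.7 CPM in all sums of at least 20 cells, and STAT5B ran between 0 and 26.2 CPM. Neither was called in any of the gate comparisons that were tested.

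The genes whose levels were most like that of IL7R were ranked by Pearson's r of log2(CPM + 1) over the 32 gate sums with at least 20 cells, among 7423 features. LEF1 came first (r = 0.957), a transcription factor of early B and T cells. PDCD1, which encodes the inhibitory receptor PD-1, followed (r = 0.923), then REEP3 (0.865), TMEM132A (0.854), CDC42EP3 (0.843), EPB41 (0.835), CHD3 (0.835) and SENP1 (0.834). Sums of 1 library share their dog and depth, and the r values are a description. LEF1 averaged 22.2 CPM in DNTT-high and 0.45 CPM in DNTT-low stem-like cells. It averaged 49.0 CPM in non-cycling and 60.4 CPM in cycling VPREB1 cells, 0.71 CPM in MS4A1 cells, 50.6 CPM in CD3E cells and 0.52 CPM in VCAN cells. PDCD1 averaged 25.5 and 25.7 CPM in the non-cycling and cycling VPREB1 gates, 14.0 CPM in CD3E cells and 0.71 CPM in MS4A1 cells. FOXO1 had r = 0.777 and IL2RG r = 0.369.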

How the data were processed

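UMI counts per gene and barcode were the values as deposited. The authors' filtered matrices came from Cell Ranger 7.0.1 per the file headers, and the submitters' processing notes name Cell Ranger 7.1.0 and CanFam 3.1. Per the labels' protocols, preparations had over 70% viable cells and under 25% neutrophils and were sequenced with 150 bp reads.

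Barcodes with at least 200 genes and at most 10% of UMIs from the 13 mitochondrial features were kept, giving 44642408 to 61101458 UMIs per library. Gates were set on raw UMIs and may overlap. Doublets were scored in scanpy 1.11.5 and kept, and leaving them out was an alternative. Gate sums with at least 20 cells entered 1 joint fit in edgeR 4.0.16 (R 4.3.3; quasi-likelihood, TMM scaling, library as a block), and comparisons of sorted and whole marrow libraries had fits of their own. Benjamini-Hochberg adjustment ran over all genes tested, with calls at an adjusted p under 0.05. DESeq2 1.42.0, RLE size factors, no low-count filter, a 20% mitochondrial limit, at least 10 cells per sum, stricter gates, cells of 1 gate only, thinning, other blocks and each library left out were alternatives. Intervals are exact (Poisson for CPM, Clopper-Pearson for shares) and cover counting error only. The edgeR step was tested on simulated data.

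Named genes are IL7R, the called members of the pathway list with IL2RG, JAK1, JAK3, STAT5A, STAT5B and BCL2, and the 8 genes most like IL7R, of those averaging at least 5 CPM. Some genes are not reported here. IL7R and the lists were chosen with earlier results of these data known. The title numbers do not pair the libraries. Library names tie CD34-sorted 1 to whole marrow 2 and CD34-sorted 2 to whole marrow 3, whose deviations from the group means correlated at 0.244 and 0.278 over 10375 genes. The CD79A symbol was high in every gate and was not used.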

Additional observations from a re-analysis of the deposited data

Results flagged for a closer look

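Barcodes outside the limits on genes and mitochondrial UMIs, which no comparison uses, held IL7R at 154 and 169 CPM in CD34-sorted 1 and 2, and at 57.3, 65.6 and 52.8 CPM in whole marrow 1, 2 and 3. These levels were above those of the kept cells of the same libraries, at 64.6 and 57.1 CPM, and at 18.2, 12.8 and 13.3 CPM.

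Cells with at least 2 UMIs of GATA3 and none of CD3E, outside the VPREB1 and the IRF8 and TCF4 gates, stood out in the sorted libraries with 282 and 338 CPM of IL7R (61 and 50 cells). Whole marrow held 10, 8 and 4 such cells, at 671, 262 and 99.9 CPM. The value of whole marrow 1 rests mostly on 1 cell, which held 100 of the 947 IL7R UMIs of that library. In the sorted libraries these cells carried IL17RB at 467 and 553 CPM, CRLF2 at 130 and 215 CPM, and CD3G at 1.4 and 9.2 CPM. They were picked after values were seen and were not tested.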

How the results depend on the processing

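Of 156 alternative values of the 10 tested differences, 129 kept their sign and their side of the threshold. IL7R in sorted over whole marrow libraries within VPREB1 cells (0.10) turned sign with thinning (-0.12), with the dog as a replicate block (-0.025) and without CD34-sorted 1 (-0.11 to 0.30 with 1 library left out), and was called in none. The fits with the dog as a block gave 1.96 over all cells, called as before. Non-cycling VPREB1 over DNTT-high cells (1.29) lost its call with sums of at least 10 cells (1.23) and with thinning (0.40). Non-cycling over cycling VPREB1 cells gained one when only both gates were fitted with the library as a replicate block (0.43). With sums of at least 10 cells, MS4A1 over non-cycling VPREB1 cells (-1.58) and CD3E over MS4A1 cells (1.504) lost their calls. Without 1 library they ran from -5.52 to -3.68 and from 3.37 to 5.04. CD3E over non-cycling VPREB1 cells (-0.16) turned sign with stricter gates (0.79), thinning (0.90, called), cells of 1 gate only (0.97) and the sorted CD3E sums left out (0.39), and ran from -0.48 to 0.18 without 1 library, turning without either sorted one. The cytotoxic difference (-1.37) lost its call with RLE factors (-1.32), no low-count filter (-1.40), the 20% limit (-1.25), doublets left out (-1.27), sums of at least 10 cells (-1.36), stricter gates (-1.61), cells of 1 gate only (-1.58), no replicate block (-1.40) and only both gates with the library as a replicate block (-1.37). It ran from -1.89 to -1.10 without 1 library, called only without whole marrow 3, and was called by DESeq2 (-1.28) and with thinning (-1.42). The cause of these changes was not tested.

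Counts of genes called moved by over 1.5 times in 41 of 156 cases. They ran from 1757 to 5521 around 4161 (sorted over whole marrow), 21 to 385 around 49 (VPREB1 cells), 4 to 2095 around 364 (DNTT-high), 934 to 3326 around 2102 (non-cycling over DNTT-high), 1236 to 2636 around 2328 (non-cycling over cycling), 327 to 1738 around 1565 (MS4A1), 958 to 2296 around 2175, 273 to 1103 around 837 and 1223 to 3343 around 2703 (CD3E over VPREB1, MS4A1 and VCAN cells) and 23 to 114 around 67 (cytotoxic). Of 32 CPM values, 30 held with the 20% limit, 28 without doublets, 22 with stricter gates and 12 with cells of 1 gate only. Among pathway members called in the main fits, RLE factors turned no sign and kept every call, and they added calls in some comparisons. The signs of members not called were not compared.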
